A study of Homo sapiens and Mus musculus with 56 samples.

Results

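DBM2 is a human glioblastoma line, and its response to V-4084 was read on 6 human Affymetrix whole-transcript arrays, 3 of cells given V-4084 and 3 of cells given vehicle. These 6 arrays were chosen by their titles from the 56 arrays of the series, of which 28 are human. V-4084, per the labels, is a small molecule that blocks the kinase activity of MET selectively. According to the labels, cells of DBM2 and of the lines U87M2, U118, U251M2 and SF295 were kept for 7 days in vehicle or V-4084. The compound was dissolved at 0.01 M in DMSO before use; the sources used here do not give the final concentration. The other 28 arrays are mouse arrays of tumours grown under the skin of nude mice from the same lines, in mice given vehicle or V-4084 at 30 mg per kg. Nothing in the labels tells whether repeats came from different cultures, so the p-values describe the spread between arrays, which may be technical.

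The labels of the 3 V-4084 arrays conflict: DBM2 stands in the title, but SF295 in the fields for source and cell line. Expression on all 3 lay with DBM2. Over all 18417 genes the correlation with the mean of the DBM2 vehicle arrays was 0.988, 0.933 and 0.996 for repeats 1, 2 and 3, against 0.922, 0.876 and 0.924 with the mean of the SF295 vehicle arrays. Genes are not independent replicates, so these values only describe likeness. Between the vehicle arrays of both lines 354 genes differed by more than 2 on the log2 scale, and 354, 338 and 354 of them lay nearer to DBM2 on the 3 arrays. AHR, the aryl hydrocarbon receptor, lay at 4.68 on DBM2 vehicle and 11.47 on SF295 vehicle, and at 4.70, 5.16 and 4.52 on the V-4084 arrays. FLG, which encodes filaggrin, lay at 11.59 in DBM2 and 5.51 in SF295, and at 11.59, 11.08 and 11.63 on the V-4084 arrays. CP, the copper carrier ceruloplasmin, and NEFL, a neurofilament subunit, were low on all 3 as in DBM2, at no more than 4.59 and 5.68, against 9.86 and 10.80 in SF295. ACP3, an acid phosphatase, lay at 10.35 in DBM2, 4.58 in SF295 and at least 9.62 on the V-4084 arrays. CALB1, the calcium buffer calbindin, was 10.20, 7.61 and 9.95 on the V-4084 arrays, against 10.22 in DBM2 and 4.71 in SF295, so repeat 2 was the array farthest from DBM2. The arrays are called DBM2 below.

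MET is a receptor tyrosine kinase of the cell surface, and hepatocyte growth factor (HGF) is its ligand. HGF is secreted as an inactive chain, cut by proteases such as HGFAC, HPN and ST14 and held back by the inhibitors SPINT1 and SPINT2. Active MET recruits adaptors such as GAB1, GRB2 and SHC1 and signals through the RAS and ERK cascade, PI3K and STAT3. Output of the ERK cascade is read in immediate early genes and in feedback inhibitors of the DUSP, SPRY and SPRED families, while PI3K and AKT hold FOXO factors out of the nucleus. In glioblastoma some tumours and lines make HGF themselves, which gives an autocrine loop, and others make MET without HGF.

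Among the 6 arrays, V-4084 repeat 2 stood apart. Results below include it unless said otherwise, and for many the value without it is given too. The standard deviation of all probe sets was 1.75 on that array, 2.03 to 2.06 on the other DBM2 arrays and 1.90 to 2.10 on the other 22 human arrays. Of 18417 genes, 41.3% deviated by more than 0.5 (log2) from the vehicle mean on repeat 2, against 3.84% on V-4084 repeat 1 and 0.478% on repeat 3. On the vehicle arrays, each set against the mean of the other two, this was 1.17% to 2.55%. The deviation of repeat 2 ran with the level of the gene: its median was 0.67 in the decile of genes with the lowest vehicle level and -0.52 in the decile with the highest. Repeat 1 had a shallower course of the same form, from 0.11 to -0.08, and repeat 3 stayed between 0.04 and -0.02. Genes that are bright on these arrays therefore tended to be low on repeat 2, and dim genes high.

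**Figure D1:**
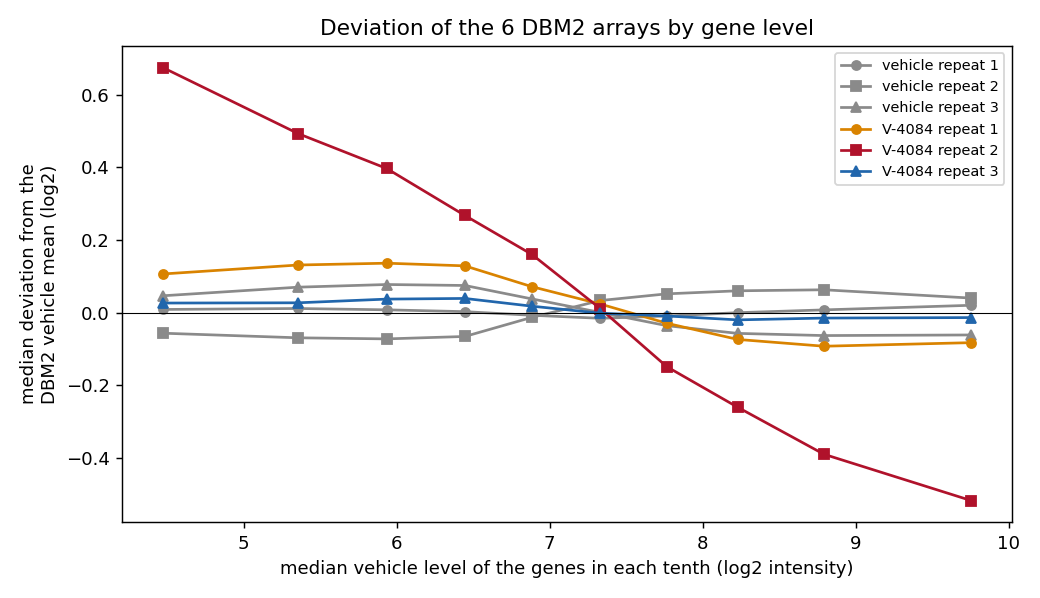
Genes were sorted into deciles by their mean level on the 3 DBM2 vehicle arrays (x axis, median log2 intensity of each decile); the y axis is the median deviation of each array from that mean (log2), with 1 line per array. V-4084 repeat 2 runs from 0.67 to -0.52, and the other 5 arrays stay between -0.09 and 0.14.

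Markers of other cell types were also read on these arrays, which the labels give as cultured cells. The skeletal muscle list had 19 measured genes, of which 4 lay above the median level of all genes. Its mean log2 level was 5.90, 6.02 and 6.50 on the vehicle arrays and 6.21, 6.83 and 5.95 on the V-4084 arrays, so it was highest on V-4084 repeat 2 and next highest on vehicle repeat 3. Summed on the linear scale its level was 1550 to 2387 on vehicle and 1594 to 2929 on V-4084. On the DBM2 mouse arrays with the same repeat numbers the muscle list read 6.29, 7.65 and 9.12 with vehicle and 7.43, 9.88 and 6.51 with V-4084, with the same arrays highest and next highest. CKM, muscle creatine kinase, was 5.92, 6.23 and 6.77 on the vehicle arrays and 6.27, 7.41 and 5.92 on the V-4084 arrays. Erythroid genes (5 measured, none above the median) had a mean log2 level of 5.93 on V-4084 repeat 2 and 5.21 to 5.42 on the other arrays. HBB, a globin, was 6.52 there and 5.19 to 5.57 elsewhere. ALAS2 of the same list was 6.19 there, below its 6.42 on V-4084 repeat 1 and 6.24 on vehicle repeat 3. The list is dim, with a median vehicle level of 5.45, and dim genes in general rose on repeat 2. Its median deviation there was 0.94, against 0.49 and 0.40 for all genes of deciles 2 and 3. Summed linear levels of the other lists lay, on vehicle and on V-4084, at 2781 to 3097 and 2707 to 2979 for fibroblasts (13 genes, 7 above the median), 1154 to 1229 and 1229 to 1307 for endothelium (12 and 2), 1360 to 1361 and 1351 to 1426 for macrophages and monocytes (14 and 1), 544 to 634 and 667 to 717 for neutrophils (8 and 1), 554 to 721 and 663 to 694 for adipocytes (8 and 1) and 682 to 749 and 698 to 798 for keratinocytes (8 and 1). In bulk RNA a smaller number of cells and less RNA per cell cannot be told apart. The neural and glial list, which stands for the glioblastoma cells, had 10 of 26 genes above the median and a mean log2 level of 7.01 to 7.07 on vehicle and 7.04 to 7.12 on V-4084. Its summed linear level was 9427 to 10205 on vehicle, 9738 and 9540 on V-4084 repeats 1 and 3 and 7246 on repeat 2, so its brighter genes were low on that array. Where the muscle and erythroid signal on human arrays came from was not tested, and neither was whether they hold RNA of cultured cells alone. The part of the narrow range and of these markers in the gene values below was not tested.

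Across the genome no gene passed the test in DBM2. Limma was fitted to the 10 groups of the human arrays, and genes were called at a Benjamini-Hochberg adjusted p under 0.05. That gave 0 of 18417 genes (0%), with a smallest adjusted p of 0.111. At an unadjusted p under 0.05 there were 4920 genes, 2276 higher on V-4084 (12.4%) and 2644 lower (14.4%). On 1819 genes (9.88%) all 3 V-4084 arrays lay above all 3 vehicle arrays, and on 1357 (7.37%) all lay below. Of these 3176 genes, V-4084 repeat 2 was the array farthest from vehicle for 82.0% and repeat 3 the nearest for 70.1%.

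The count depended on which V-4084 array was left out. Without repeat 2, limma called 0 genes and 1051 stood at an unadjusted p under 0.05, 479 higher (2.6%) and 572 lower (3.11%), with a smallest adjusted p of 0.781. Without repeat 3, the array nearest to vehicle, 4537 genes were called, 1934 higher (10.5%) and 2603 lower (14.1%). Without repeat 1 none was called. All of these fits share the vehicle arrays. The median standard error of a difference was 0.15 (log2), and its 95% interval reached a median of 0.30 to either side. This error pools the spread of all 10 groups. The median SD was 0.23 within V-4084, 0.14 within vehicle and 0.10 within V-4084 repeats 1 and 3. For genes that moved on repeat 2 the pooled error may therefore be too small. Fitted to the 6 DBM2 arrays alone, limma called 0 genes, and 1517 stood at an unadjusted p under 0.05. For 95.9% of genes the interval lay between -1 and 1, which is within a 2-fold change either way, and for 63.7% within a 1.5-fold change. A p that misses the threshold does not show that a gene was unaltered.

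The target and its ligand come first. HGF, the ligand, was low in DBM2: 5.41, 5.39 and 5.31 on the vehicle arrays and 5.17, 5.50 and 5.23 on the V-4084 arrays, a difference of -0.07 (SE 0.12, limma adjusted p = 0.718). In U87M2, U118 and SF295 the vehicle level of HGF was 11.46, 10.20 and 10.03, and in U251M2 5.14, so DBM2 sits with U251M2 at the low end. MET, the receptor, was 10.42, 10.54 and 10.34 on the vehicle arrays and 10.16, 9.45 and 10.30 on the V-4084 arrays. All 3 V-4084 values lay below the lowest vehicle value, with repeat 2 lowest and repeat 3 close to the vehicle arrays. The means were 10.43 ± 0.10 (SD, n = 3) and 9.97 ± 0.45 (SD, n = 3), a difference of -0.46 (SE 0.16, limma adjusted p = 0.115), and -0.20 without repeat 2. In U87M2 the MET difference was -1.06, and the gap of 0.60 between the lines (SE 0.23) missed the threshold with all arrays (limma adjusted p = 0.126). Without DBM2 V-4084 repeat 2 the gap was 0.86 and passed (limma adjusted p = 0.0035), so this call rests on that array.

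Of the 16 genes listed for the HGF and MET axis, 2 stood higher and 3 lower at an unadjusted p under 0.05, and none was called. Among all genes 12.4% stood higher and 14.4% lower at that p. Without repeat 2 the list counts were 1 and 0, against 2.6% and 3.11% of all genes. These shares are the background for the counts of every list below at that p. HPN, or hepsin, a surface protease that activates HGF, was 6.33, 6.35 and 6.63 on the vehicle arrays and 6.80, 7.14 and 6.74 on the V-4084 arrays, a difference of 0.46 (SE 0.14) and 0.33 without repeat 2. The V-4084 values of HPN all lay above vehicle. GAB1, the main docking adaptor of MET, was 7.49, 7.51 and 7.14 on the vehicle arrays and 7.11, 6.62 and 7.27 on the V-4084 arrays, and the groups overlapped (-0.38, SE 0.15; -0.19 without repeat 2). PTPN11, the phosphatase SHP2 that binds GAB1, was 9.19, 9.31 and 9.12 on the vehicle arrays and 8.98, 7.54 and 9.12 on the V-4084 arrays. Its difference of -0.66 came with a single low array, and without repeat 2 it was -0.16. Against U87M2 the effect in DBM2 was called higher for 3 of the 16 and lower for 1 (5 and 1 without repeat 2). Among all genes 3.43% were called higher and 3.36% lower in this contrast (3.55% and 3.08% without repeat 2). PLAUR, the urokinase receptor, had a gap of 1.31 (SE 0.21), PLAU, or urokinase, of 0.69 (SE 0.20) and SRC, a tyrosine kinase, of 0.67 (SE 0.18); these genes were named after their values were seen. GAB1 was the lower one, with an effect of 0.83 in U87M2 (DBM2 minus U87M2 -1.21, SE 0.21, limma adjusted p = 0.000402).

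Outputs of the ERK cascade were close to vehicle in DBM2. Of 24 measured genes the median difference was 0.03 (all genes 0.05), and 13 lay above 0 and 11 below. At an unadjusted p under 0.05 there were 4 higher and 2 lower (all genes 12.4% and 14.4%). Without repeat 2 there were 2 higher and 0 lower, and the median was 0.05. DUSP6, the phosphatase that inactivates ERK, was 8.91, 8.85 and 8.92 on the vehicle arrays and 8.47, 9.30 and 8.84 on the V-4084 arrays. The V-4084 values of DUSP6 lay on both sides of vehicle, and the difference was -0.02 with a 95% interval of -0.36 to 0.32. EGR1, an immediate early transcription factor, was 8.81, 8.72 and 8.88 on the vehicle arrays and 9.30, 8.42 and 9.08 on the V-4084 arrays (0.13, interval -0.26 to 0.51). The low value of EGR1 is repeat 2, and without it the difference was 0.38. For 21 of the 24 genes (87.5%) the lower end of the 95% interval lay above a 1.5-fold fall, against 82.2% of all genes. The other 3 were ETV1, an ETS factor, SPRED1, an inhibitor of RAS signalling, and ETV5, another ETS factor, named from its interval.

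MYC, a growth-promoting transcription factor, was the member with the smallest p. Its values were 6.87, 6.87 and 7.06 on the vehicle arrays and 7.38, 7.74 and 7.17 on the V-4084 arrays, all V-4084 arrays above vehicle. The difference was 0.50 (SE 0.13, limma adjusted p = 0.111), and 0.34 without repeat 2. FOSL1, a subunit of the AP-1 factor, was 9.31, 9.27 and 9.40 on the vehicle arrays and 9.60, 9.69 and 9.43 on the V-4084 arrays, also apart from vehicle, with a difference of 0.25 (SE 0.12) and 0.19 without repeat 2. JUNB, another AP-1 subunit, was 7.56, 7.88 and 7.76 on the vehicle arrays and 7.92, 8.47 and 7.87 on the V-4084 arrays. Its groups overlapped, with a difference of 0.35 (SE 0.15) and 0.16 without repeat 2. SPRED1 was 9.77, 9.77 and 9.55 on the vehicle arrays and 9.24, 8.91 and 9.52 on the V-4084 arrays, below vehicle on every V-4084 array (-0.47, SE 0.19; -0.32 without repeat 2). ETV1 was 8.64, 8.84 and 8.38 on the vehicle arrays and 8.29, 7.80 and 8.50 on the V-4084 arrays, with repeat 3 inside the vehicle range. Its difference was -0.42 (SE 0.15) and -0.22 without repeat 2.

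The same genes were set against U87M2, the line with the highest HGF. This contrast was chosen after the data were seen, and its arrays are all separate. Over all genes the V-4084 effect in DBM2 was higher than in U87M2 for 631 genes (3.43%) and lower for 619 (3.36%) at an adjusted p under 0.05. Without DBM2 V-4084 repeat 2 the counts were 654 (3.55%) and 567 (3.08%). Of the 24 ERK genes, 15 were called higher in DBM2 and 0 lower (14 and 0 without repeat 2). In U87M2 itself 19 of the 24 fell by the same fit and 1 rose, where 9.62% of all genes fell and 5.37% rose, with a median of -0.94. FOSL1 had a difference of -2.08 in U87M2, 2.33 away from DBM2 (SE 0.17, adjusted p = 2.36e-09). EPHA2, an ephrin receptor, stood at -2.46 in U87M2 and -0.17 in DBM2, 2.29 apart (SE 0.25). For EGR1 the gap was 1.93, for LIF, a cytokine of the interleukin 6 family, 1.77, for MYC 1.65 and for DUSP6 1.29. In U118, SF295 and U251M2 the effect on FOSL1 was -0.08, 0.06 and 0.43, and on MYC -0.18, 0.27 and 0.29. U118 and SF295 are also high in HGF. A gap to U87M2 alone therefore does not show a trait particular to DBM2. EPHA2, EGR1, LIF and DUSP6 were named after their values were seen.

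**Figure D2:**
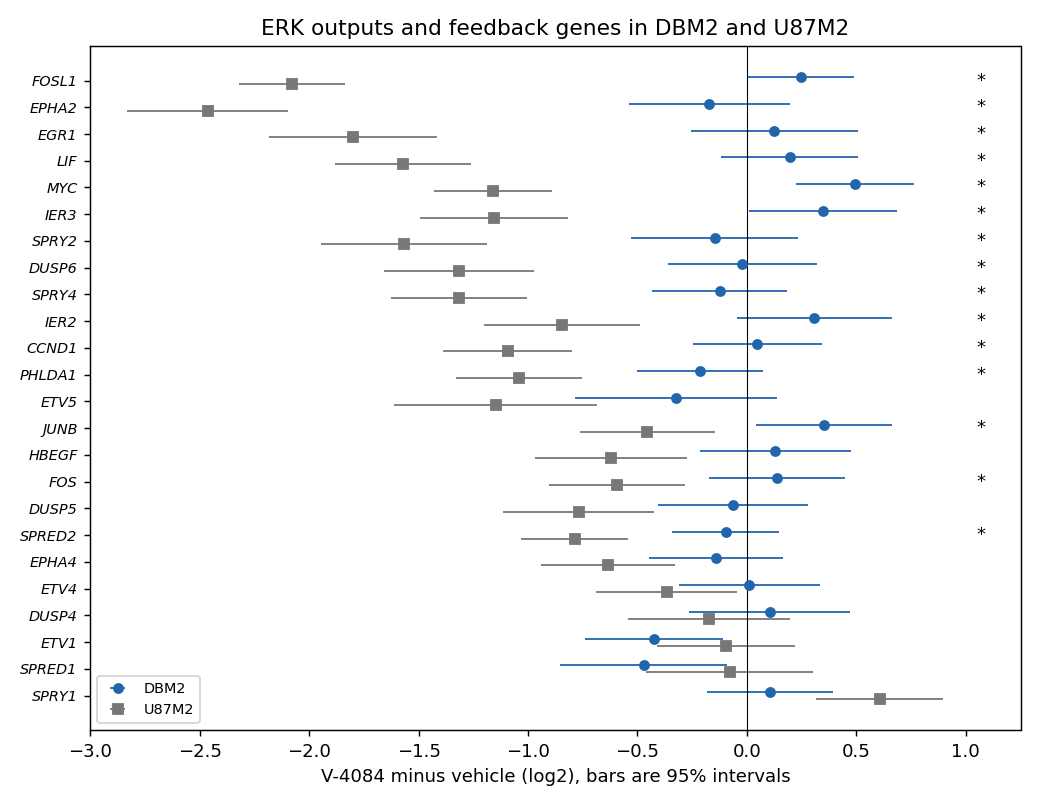
Each row is 1 of 24 ERK outputs and feedback genes, ordered by the gap between the lines; the x axis is V-4084 minus vehicle (log2) in DBM2 (blue circles) and U87M2 (grey squares), with 95% intervals from limma, n = 3 arrays per group. The DBM2 points lie between -0.47 and 0.50 and the U87M2 points between -2.46 and 0.61; an asterisk marks the 15 genes whose difference between the lines had an adjusted p under 0.05.

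Genes that FOXO factors switch on had a median difference of -0.003 in DBM2 over 17 measured members. At an unadjusted p under 0.05, 1 was higher and 3 lower (all genes 12.4% and 14.4%), and 0 and 1 without repeat 2. SESN1, a stress-induced inhibitor of mTORC1, was 7.92, 7.92 and 7.82 on the vehicle arrays and 7.45, 6.83 and 7.71 on the V-4084 arrays, below vehicle on all V-4084 arrays (-0.56, SE 0.16; -0.31 without repeat 2). SESN3, of the same family, was 8.65, 8.44 and 8.29 on the vehicle arrays and 8.16, 7.90 and 8.14 on the V-4084 arrays, again with no overlap (-0.39, SE 0.19; -0.31 without repeat 2). FBXO32, the ubiquitin ligase atrogin, was 6.92, 6.73 and 7.04 on the vehicle arrays and 6.70, 5.80 and 6.83 on the V-4084 arrays. Only repeat 2 of FBXO32 lay far from vehicle, and the difference was -0.45 with it and -0.13 without it. ERBB3, a receptor of the EGFR family, was higher on all V-4084 arrays (0.26, SE 0.11; 0.22 without repeat 2). Against U87M2 the effect was lower in DBM2 for 7 of the 17 and higher for 1 (all genes 3.36% and 3.43%). The list counts were the same without repeat 2 (all genes 3.08% and 3.55%). SESN3 stood at 1.85 in U87M2, a gap of -2.24 (SE 0.26, adjusted p = 2.91e-06), SESN1 at 0.88 with a gap of -1.44, and FBXO32 at 1.10 with a gap of -1.56. In U118, SF295 and U251M2 the effects were -0.01, 0.20 and -0.57 for SESN3. They were -0.21, -0.09 and -0.38 for SESN1 and 0.04, 0.47 and 0.09 for FBXO32. BCL2L11, the cell death inducer BIM, was 6.54, 6.79 and 6.61 on the vehicle arrays and 6.49, 7.21 and 6.47 on the V-4084 arrays in DBM2, where repeat 2 alone was high, against a U87M2 difference of 1.89 (gap -1.82, SE 0.23). BCL2L11 was named after its values were seen.

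The rest of the BCL2 family, which sets the threshold for apoptosis, had 17 measured genes with BCL2L11 and a median difference of 0.08. At an unadjusted p under 0.05, 3 were higher and 0 lower (all genes 12.4% and 14.4%), and 1 and 0 without repeat 2. BMF, a death inducer of the BH3-only kind, was 5.78, 5.92 and 5.90 on the vehicle arrays and 6.23, 6.09 and 6.23 on the V-4084 arrays, so all V-4084 arrays were higher and repeat 2 was the lowest of them. Its difference was 0.32 (SE 0.13, adjusted p = 0.149) and 0.36 without repeat 2. BBC3, which encodes PUMA, and BIK, both death inducers of that kind, had differences of 0.31 (SE 0.14) and 0.26 (SE 0.13) with overlapping groups. Without repeat 2 these differences were 0.19 and 0.21. BNIP3, a mitophagy receptor, was at -0.39 (SE 0.22) and at -0.12 without repeat 2.

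No gene was called, so the genes with the smallest p are named as not called: in each direction 10 genes with no overlap between the groups and whose mean lay above the median of all genes. All 20 had an adjusted p of 0.111. On the higher side CX3CL1, the membrane-bound chemokine fractalkine, was 7.21, 7.07 and 6.92 on the vehicle arrays and 7.64, 7.74 and 7.46 on the V-4084 arrays. Its difference was 0.54 (SE 0.13) and 0.48 without repeat 2, the largest value without that array among the 10 genes of this direction. METTL1, which methylates tRNA, was 6.88, 6.99 and 7.22 on the vehicle arrays and 7.46, 8.02 and 7.43 on the V-4084 arrays, 0.61 in all (SE 0.15) and 0.41 without repeat 2. DRD4, a dopamine receptor, was 7.05, 7.14 and 7.34 on the vehicle arrays and 7.55, 7.70 and 7.46 on the V-4084 arrays, a smaller shift of 0.39 (SE 0.11; 0.33 without repeat 2).

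AUNIP, a partner of Aurora kinase A, was 7.20, 7.17 and 7.17 on the vehicle arrays and 7.39, 7.98 and 7.51 on the V-4084 arrays, with close vehicle values and repeat 2 highest (0.45, SE 0.13; 0.27 without repeat 2). CHST1, a sulfotransferase for glycan chains, differed by 0.52 (SE 0.14), LAGE3, a subunit of a tRNA-modifying complex, by 0.54 (SE 0.15) and TMEM219, a membrane receptor of IGFBP3, by 0.39 (SE 0.11). PRR22 differed by 0.59 (SE 0.15) and WDR25 by 0.49 (SE 0.14). In all 10 genes of the higher side repeat 2 was the highest array, and without it their differences ran from 0.27 to 0.48.

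On the lower side TMF1, a Golgi protein, was 7.89, 7.65 and 7.67 on the vehicle arrays and 7.08, 6.70 and 7.30 on the V-4084 arrays, -0.71 in all (SE 0.16) and -0.54 without repeat 2. PDCD7, a protein of the minor spliceosome, was 7.57, 7.50 and 7.37 on the vehicle arrays and 6.80, 6.67 and 7.11 on the V-4084 arrays (-0.62, SE 0.14; -0.52 without repeat 2). POLR3G, a subunit of RNA polymerase III, was 7.78, 7.59 and 7.38 on the vehicle arrays and 7.00, 6.83 and 7.00 on the V-4084 arrays, with the V-4084 arrays close together (-0.64, SE 0.15; -0.58 without repeat 2). That all V-4084 arrays lay below vehicle in these genes was set by the choice of the genes. Repeat 2 was the lowest array in them, as in all 10 genes of the lower side. LYPLAL1, a lysophospholipase-like enzyme, was 7.57, 7.81 and 7.65 on the vehicle arrays and 6.96, 6.32 and 7.18 on the V-4084 arrays (-0.86, SE 0.19; -0.61 without repeat 2). PPP3R1, the regulatory subunit of calcineurin, was 8.73, 8.71 and 8.73 on the vehicle arrays and 8.29, 7.78 and 8.46 on the V-4084 arrays, with vehicle values close together (-0.55, SE 0.13; -0.35 without repeat 2). SREK1, a splicing regulator, differed by -0.62 (SE 0.15; -0.46 without repeat 2), and ITPRID2 by -0.61 (SE 0.15; -0.39 without repeat 2). IFNE, a type I interferon, was 8.12, 7.97 and 7.96 on the vehicle arrays and 7.25, 5.30 and 7.48 on the V-4084 arrays. Its repeat 2 value lay far below those of the other V-4084 arrays, and the difference was -1.34 (SE 0.32) with it and -0.65 without it.

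**Figure D3:**
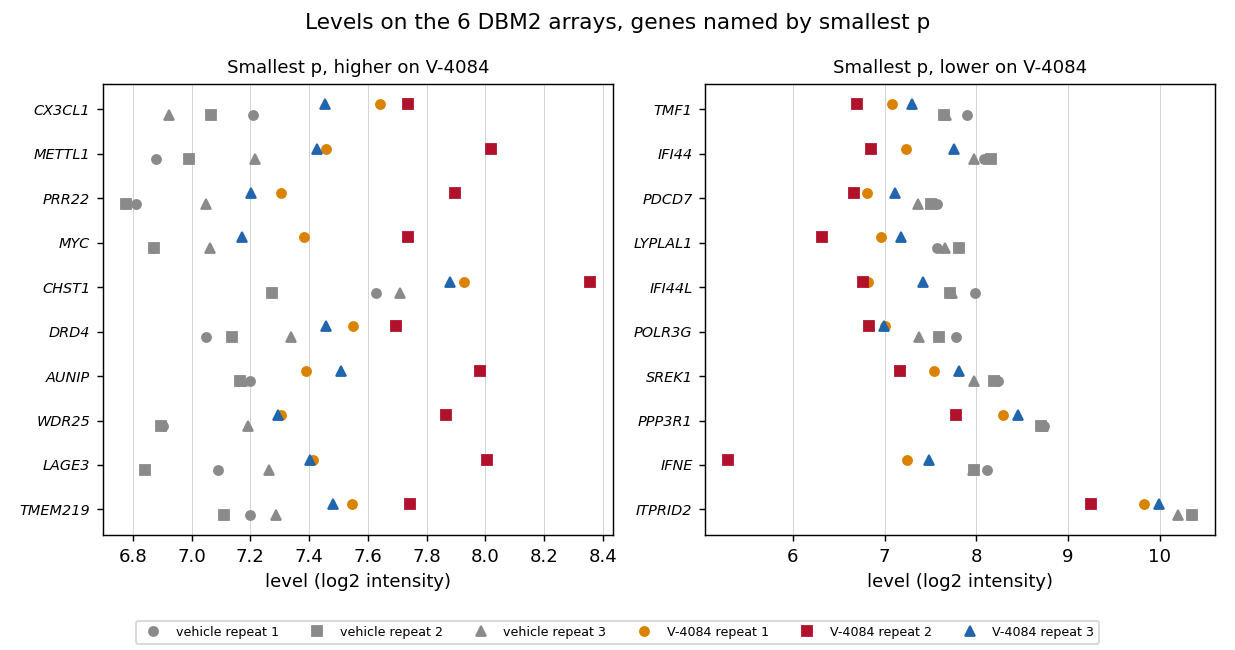
Each row is a gene named for its small p, the x axis is its level (log2 intensity) and each symbol is 1 of the 6 DBM2 arrays (grey vehicle, coloured V-4084). In all 20 genes the V-4084 arrays lie on 1 side of the vehicle arrays by the choice of the genes; V-4084 repeat 2 (red squares) is the farthest in every row, and IFNE on repeat 2 lies at 5.30.

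Without repeat 2, the interferon response had more genes lower on V-4084 than any other pathway list examined here. Cells that sense type I interferon switch on a set of antiviral genes, many of which share a DNA element upstream of their start. Of 24 measured genes, 8 had all V-4084 arrays below all vehicle arrays and 1 above, against 7.37% and 9.88% of all genes. At an unadjusted p under 0.05 there were 5 lower and 1 higher (all genes 14.4% and 12.4%). Without repeat 2 there were 6 lower and 0 higher, where 3.11% and 2.6% of all genes were. None was called. The median difference was -0.13 with all arrays and -0.18 without repeat 2 (all genes 0.05 and 0.02). By array the median deviation was -0.32, -0.12 and -0.10 on V-4084 repeats 1, 2 and 3, so the lowest array was repeat 1.

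IFI44, an interferon-induced protein, was 8.08, 8.16 and 7.98 on the vehicle arrays and 7.23, 6.85 and 7.76 on the V-4084 arrays. All V-4084 arrays lay below vehicle, and the difference was -0.79 (SE 0.17, limma adjusted p = 0.111) and -0.58 without repeat 2. IFI44L, its neighbour and paralog on chromosome 1, was 7.98, 7.71 and 7.74 on the vehicle arrays and 6.81, 6.77 and 7.41 on the V-4084 arrays, with repeats 1 and 2 lower than repeat 3 (-0.81, SE 0.19; -0.70 without repeat 2). HERC5, the ligase that attaches ISG15 to proteins, was 6.30, 6.28 and 5.86 on the vehicle arrays and 5.73, 5.17 and 5.71 on the V-4084 arrays; here vehicle repeat 3 lay near the V-4084 arrays (-0.61, SE 0.16; -0.43 without repeat 2). RIGI, a sensor of viral RNA, was 7.82, 7.56 and 7.53 on the vehicle arrays and 7.08, 6.50 and 7.24 on the V-4084 arrays (-0.70, SE 0.18; -0.48 without repeat 2). MX1, OAS1, OAS2 and IFIT1 were the other members with no overlap on the low side, and OASL the member on the high side. ISG15 and IFI6, strong interferon targets in many cells, overlapped with vehicle. These 7 fall outside the naming rule and were named after their values were seen. The effect in DBM2 was lower than in U87M2 for 3 of the 24 and higher for 1 (all genes 3.36% and 3.43%). Without repeat 2 it was lower for 2 and higher for 1 (all genes 3.08% and 3.55%). IFI44L had a gap of -1.15 (SE 0.26, adjusted p = 0.00615) and IFI44 of -0.90 (SE 0.25, adjusted p = 0.0236). Without repeat 2 the gap of IFI44 was -0.69 and missed the threshold (adjusted p = 0.0695).

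The promoters of this list are shown because 8 of its 24 genes lay below vehicle on all V-4084 arrays. The list did not fall as a whole: 17 genes had a difference below 0 and 7 above. Promoter sequences came from RefSeq (GRCh38.p14), and the 250 bases before the start of 14239 measured genes and of 19 of the 24 list members were searched. The core of the interferon-stimulated response element was written as GAAANNGAAA and sought on both strands, overlaps allowed. It was present in 11 of 19 members (57.9%) and in 2.57% of all promoters. Of the 7 members that lay below vehicle on all V-4084 arrays and have a promoter here it was in 4 (57.1%), and of the other 12 in 7 (58.3%), so its presence did not separate them. The stretches around the match nearest the start are given for the 3 members with a match and the smallest p, written 5′ to 3′ with matches on either strand in capitals.
IFI44 (chr1:78649726-78649788, plus strand): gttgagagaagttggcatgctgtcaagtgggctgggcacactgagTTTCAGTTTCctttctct
IFI44L (chr1:78620330-78620429, plus strand): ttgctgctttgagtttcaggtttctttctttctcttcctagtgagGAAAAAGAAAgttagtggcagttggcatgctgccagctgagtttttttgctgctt
HERC5 (chr4:88457000-88457099, plus strand): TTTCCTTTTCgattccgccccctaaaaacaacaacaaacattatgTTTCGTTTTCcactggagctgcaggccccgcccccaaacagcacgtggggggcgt
In IFI44 the match ends 8 bases before the start, in IFI44L 63 and in HERC5 64. HERC5 has 3 matches in its 250 bases, IFI44L 2 and IFI44 1. A match describes the letters only.

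Genes of the G2 and M phases of the cell cycle lay lower on V-4084 in number, and most of this went with repeat 2. Of 36 measured genes, 33 had a difference below 0, with a median of -0.40, and 21 were lower and 0 higher at an unadjusted p under 0.05, where 14.4% of all genes were lower. None was called. Without repeat 2 the median was -0.20 and 1 gene was lower (3.11% of all genes). The median deviation by array was 0.13, 0.08 and -0.23 on vehicle and -0.32, -0.85 and -0.10 on V-4084, so vehicle repeat 3 was lower than V-4084 repeat 3. Of the 36 genes, 3 had all V-4084 arrays below vehicle, which is near the share of all genes (7.37%).

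HMMR, a spindle-associated protein, was 1 of the 3: 7.00, 6.94 and 6.51 on the vehicle arrays and 6.32, 5.94 and 6.50 on the V-4084 arrays. Vehicle repeat 3 lay barely above V-4084 repeat 3, and the difference was -0.56 (SE 0.19, limma adjusted p = 0.111) and -0.41 without repeat 2. CENPE, a kinesin of the kinetochore, was 7.71, 7.60 and 7.21 on the vehicle arrays and 6.95, 6.27 and 7.24 on the V-4084 arrays, where repeat 3 overlapped vehicle (-0.69, SE 0.22; -0.41 without repeat 2). NUSAP1, a spindle protein, was 9.03, 9.10 and 8.69 on the vehicle arrays and 8.50, 7.56 and 8.76 on the V-4084 arrays (-0.67, SE 0.21; -0.31 without repeat 2), and KIF18A, a mitotic kinesin, differed by -0.58 (SE 0.19; -0.31 without repeat 2). In U87M2 31 of the 36 fell (9.62% of all genes), with a median of -0.85. The effect was higher in DBM2 for 7 of the 36 and lower for 0 (all genes 3.43% and 3.36%). Without repeat 2 the counts were 10 and 0 (all genes 3.55% and 3.08%). For the other 29 the lines did not pass the test against each other with all arrays.

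Promoters of many G2 and M genes carry the cell cycle genes homology region (CHR), to which the DREAM and MuvB complexes bind. TTTGAA on either strand was in 18 of 30 members with a promoter (60%) and in 10.6% of all 14239. TTTAAA, a variant form that reads the same on both strands, was in 11 (36.7%) and in 8.71% of all. Either form was in 24 of 30 (80%) and in 17.5% of all. The 3 members with all V-4084 arrays below vehicle each hold a match, shown here 5′ to 3′ in capitals for both forms and both strands.
HMMR (chr5:163460565-163460631, plus strand): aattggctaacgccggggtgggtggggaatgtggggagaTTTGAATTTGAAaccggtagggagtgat
DEPDC1 (chr1:68497083-68497154, minus strand): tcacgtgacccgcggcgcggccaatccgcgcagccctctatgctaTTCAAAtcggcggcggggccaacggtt
CCNB1 (chr5:69167075-69167149, plus strand): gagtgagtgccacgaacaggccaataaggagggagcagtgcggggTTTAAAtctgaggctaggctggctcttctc
HMMR holds 2 adjoining matches. The match nearest the start ends 16 bases before it in HMMR, 21 in DEPDC1, which encodes a mitotic protein, and 24 in CCNB1, the gene of cyclin B1. DEPDC1 and CCNB1 were named for their promoters after their values were seen; their differences were -0.57 and -0.68, and -0.42 and -0.29 without repeat 2.

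**Figure D4:**
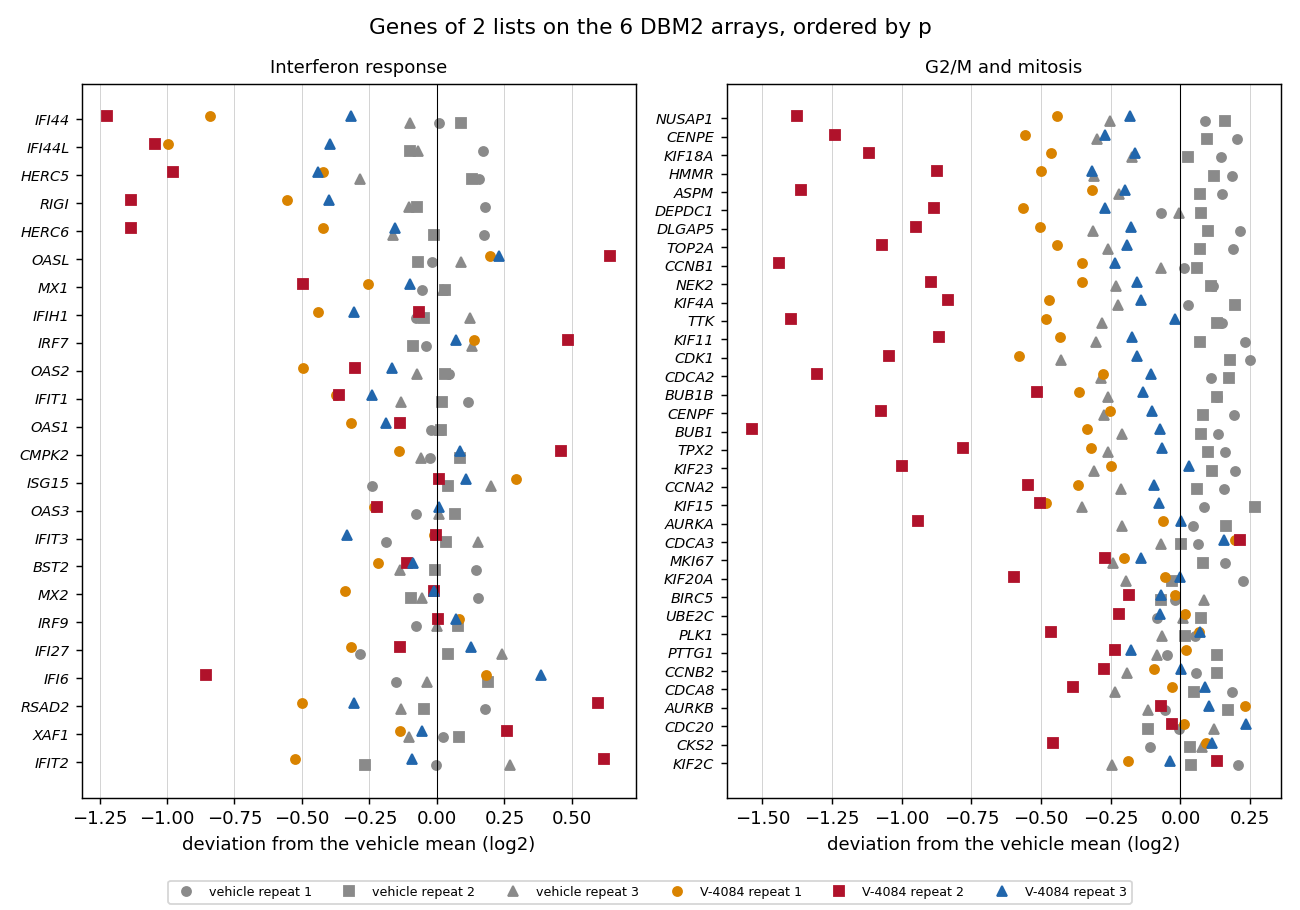
Deviation from the DBM2 vehicle mean (x axis, log2) of the 24 interferon response genes (left) and the 36 G2/M genes (right), ordered by p, with 1 symbol per array (grey vehicle, coloured V-4084). On the right V-4084 repeat 2 (red squares) lies far to the left of the other arrays in most rows; in the first 4 rows on the left all V-4084 arrays lie below vehicle.

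Genes of G1/S and DNA replication lay nearer to vehicle: of 27 measured the median was -0.08. At an unadjusted p under 0.05, 0 were higher and 4 lower (all genes 12.4% and 14.4%), and 0 of each without repeat 2. CCNE2, a cyclin of the G1/S step, was 7.79, 7.95 and 7.62 on the vehicle arrays and 7.09, 6.98 and 7.71 on the V-4084 arrays, with repeat 3 inside the vehicle range (-0.53, SE 0.20; -0.39 without repeat 2). TYMS, thymidylate synthase, was 9.19, 9.33 and 9.13 on the vehicle arrays and 8.99, 8.01 and 9.20 on the V-4084 arrays, where a single array made the difference (-0.48, SE 0.20; -0.12 without repeat 2). RRM1, a subunit of ribonucleotide reductase, and POLA1, of DNA polymerase alpha, stood at -0.37 (SE 0.16) and -0.35 (SE 0.17), and at -0.18 and -0.23 without repeat 2. Replication-dependent histone genes had 28 measured members and a median of 0.17 (0.08 without repeat 2). At an unadjusted p under 0.05, 2 were higher and 0 lower (all genes 12.4% and 14.4%).

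MYC was among the genes with the smallest p on the higher side, while the list of MYC targets and ribosome biogenesis, which includes MYC itself, had a median of -0.24 over 22 genes. At an unadjusted p under 0.05, 1 of them was higher, MYC, and 7 were lower (all genes 12.4% and 14.4%). Without repeat 2 there was 1 higher and 1 lower and the median was -0.04. NOP58, a protein of small nucleolar particles, was 8.62, 8.55 and 8.43 on the vehicle arrays and 7.96, 7.64 and 8.37 on the V-4084 arrays, below vehicle on all V-4084 arrays (-0.55, SE 0.16; -0.37 without repeat 2). NCL, or nucleolin, was 9.90, 9.81 and 9.70 on the vehicle arrays and 9.47, 8.77 and 9.70 on the V-4084 arrays (-0.49, SE 0.17; -0.22 without repeat 2). NPM1, a nucleolar chaperone, stood at -0.46 (SE 0.16; -0.24 without repeat 2). By array the list's median deviation was -0.10, -0.56 and -0.01 on V-4084.

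Sterol synthesis genes, which SREBP2 controls, had a median of -0.11 over 18 genes. At an unadjusted p under 0.05, 2 were higher and 1 lower (all genes 12.4% and 14.4%), and 0 of each without repeat 2. SC5D, a late enzyme of the pathway, was 8.56, 8.27 and 8.19 on the vehicle arrays and 7.94, 6.93 and 8.28 on the V-4084 arrays, with only repeat 2 and to a lesser degree repeat 1 below vehicle (-0.62, SE 0.23; -0.23 without repeat 2). MSMO1, sterol methyl oxidase, differed by -0.43 (SE 0.21; -0.14 without repeat 2). TM7SF2 and MVD, both enzymes of the pathway, stood slightly high, at 0.25 (SE 0.10) and 0.27 (SE 0.13). In U87M2 16 of the 18 fell (9.62% of all genes) and the median was -0.96. The effect was higher in DBM2 than in U87M2 for 10 of the 18 and lower for 0 (all genes 3.43% and 3.36%). Without repeat 2 the counts were 12 and 0 (all genes 3.55% and 3.08%). The gap was 1.15 for MSMO1 (SE 0.30, adjusted p = 0.0163) and 0.93 for MVD (SE 0.18, adjusted p = 0.00129).

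In the stress lists repeat 2 was lowest for every gene named here. Of 24 genes of the ATF4 and unfolded protein responses 1 was higher and 5 lower at an unadjusted p under 0.05 (all genes 12.4% and 14.4%). Without repeat 2 there were 0 of each. HSP90B1, a chaperone of the endoplasmic reticulum, was 12.12, 11.98 and 11.98 on the vehicle arrays and 11.81, 10.59 and 11.92 on the V-4084 arrays, and HSPA5, the chaperone BiP of the same compartment, was 10.73, 9.72 and 10.95 on the V-4084 arrays, all below vehicle. In both, repeat 2 lay far below the other V-4084 arrays, and the differences of -0.59 and -0.52 became -0.16 and -0.14 without it. SLC7A11, the cystine transporter, and PSAT1, an enzyme of serine synthesis, stood at -0.62 (SE 0.22) and -0.38 (SE 0.16). Without repeat 2 they stood at -0.34 and -0.25. Among 22 p53 targets 1 was higher and 5 lower at that p (all genes 12.4% and 14.4%), and 0 and 1 without repeat 2. In this list 4 genes had all V-4084 arrays below vehicle (7.37% of all genes). MDM2, the ligase that removes p53, was 10.53, 10.32 and 10.31 on the vehicle arrays and 10.04, 8.86 and 10.30 on the V-4084 arrays (-0.65, SE 0.21; -0.22 without repeat 2). RRM2B, a p53-induced subunit of ribonucleotide reductase, lay below vehicle on all V-4084 arrays and differed by -0.41 (SE 0.14; -0.23 without repeat 2) and FAS, a death receptor, by -0.37 (SE 0.14; -0.25 without repeat 2).

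Matrix and TGF-beta genes had a median of -0.09 over 26 genes. At an unadjusted p under 0.05, 0 were higher and 3 lower (all genes 12.4% and 14.4%), and 0 of each without repeat 2. SKIL, a feedback inhibitor of SMAD signalling, was 8.69, 8.50 and 8.32 on the vehicle arrays and 8.03, 7.53 and 8.37 on the V-4084 arrays, with repeat 3 inside the vehicle range (-0.52, SE 0.19; -0.30 without repeat 2). COL1A2, a chain of type I collagen, was 8.09, 8.07 and 8.25 on the vehicle arrays and 7.89, 7.84 and 7.97 on the V-4084 arrays; all V-4084 arrays were lower, and here repeat 2 was close to the others (-0.24, SE 0.12; -0.21 without repeat 2). POSTN, or periostin, and COL6A3, a chain of type VI collagen, differed by -0.40 (SE 0.17) and -0.36 (SE 0.15). Without repeat 2 they differed by -0.22 and -0.11. Against U87M2 the effect was lower in DBM2 for 10 of the 26 and higher for 1 (all genes 3.36% and 3.43%). Without repeat 2 the counts were 11 and 2 (all genes 3.08% and 3.55%). The gap was -1.73 for POSTN (SE 0.24, adjusted p = 3.57e-05). Of 26 neural and glial genes 4 were higher and 2 lower at an unadjusted p under 0.05 (all genes 12.4% and 14.4%). Without repeat 2 the counts were 2 and 0. DLL3, a Notch ligand, and OLIG1, an oligodendrocyte factor, stood at 0.29 (SE 0.12) and 0.28 (SE 0.12), MAP2, a microtubule protein of neurons, at -0.56 (SE 0.19; -0.25 without repeat 2). VIM, or vimentin, was 12.13, 12.25 and 12.20 on the vehicle arrays and 12.19, 11.13 and 12.15 on the V-4084 arrays. Only repeat 2 of VIM was low, and the difference of -0.37 was -0.02 without it.

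**Figure D5:**
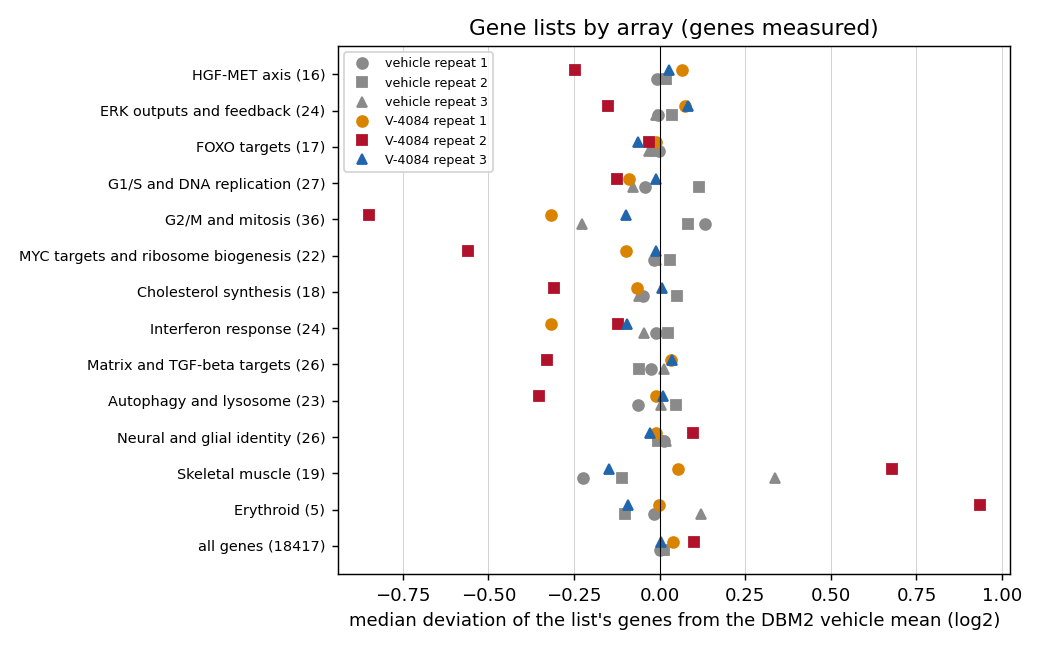
Each row is a gene list with the number of genes measured, the x axis is the median deviation of its genes from the DBM2 vehicle mean (log2) and each symbol is 1 array. V-4084 repeat 2 (red squares) is the outermost V-4084 array for G2/M genes (-0.85), MYC targets (-0.56), skeletal muscle (0.68) and erythroid genes (0.94), while for the interferon response repeat 1 is lowest (-0.32).

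Whether the response of DBM2 differs from that of the other lines was tested as its effect minus the mean effect of U87M2, U118, U251M2 and SF295. Limma called 0 of 18417 genes (0%), with 2375 at an unadjusted p under 0.05. The smallest adjusted p was 0.0695, for PDE5A, the phosphodiesterase of cyclic GMP. PDE5A was 6.75, 6.90 and 6.77 on the vehicle arrays and 6.56, 6.14 and 6.81 on the V-4084 arrays in DBM2, where the groups overlapped. Its difference was -0.31 (SE 0.14) and -0.125 without repeat 2. The mean effect of PDE5A in the other lines was 0.62, and among these U87M2 had 2.15. MMP16, a membrane-bound matrix protease, was 6.96, 6.85 and 6.44 on the vehicle arrays and 6.13, 5.72 and 6.17 on the V-4084 arrays, with no overlap (-0.74, SE 0.18; -0.60 without repeat 2), against 0.30 elsewhere (adjusted p = 0.113). NRCAM, a neuronal adhesion molecule, was 9.93, 10.02 and 9.77 on the vehicle arrays and 9.61, 8.59 and 9.64 on the V-4084 arrays (-0.62, SE 0.18; -0.28 without repeat 2), against 0.37. LONRF2 and CPED1 differed by -0.49 and -0.34 in DBM2 and by 0.38 and 0.37 in the others. Without repeat 2 the DBM2 differences were -0.24 and -0.28. FOSL1 ran the other way, at 0.25 in DBM2 and -0.42 in the others. These values of the others are means over lines that differ. By line FOSL1 stood at -2.08 in U87M2, -0.08 in U118, 0.43 in U251M2 and 0.06 in SF295. U87M2 also had the largest effect among the other lines for LONRF2 (1.45), NRCAM (1.12) and CPED1 (1.04). For MMP16 it was U118 (0.61), with U87M2 at 0.52. MMP16, CPED1, FOSL1, LONRF2 and NRCAM all had an adjusted p of 0.113 in this contrast, and none was called.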

How the data were processed

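Gene expression was measured on human Affymetrix whole-transcript arrays. The deposited values are log2 intensities per probe set, made by the authors with RMA in Partek, per the submitters' processing notes, versions not given in the sources used here. RMA sets a common distribution on the probe signals, and the array medians ran from 6.63 to 6.87. The values were used as deposited. Of 33297 probe sets, 19460 name 1 gene, 1754 several and 12083 none; only the first were used, the brightest per gene, which gave 18417 genes. Of the 19460, 19429 matched a RefSeq gene by Entrez identifier.

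Limma 3.58.1 (R 4.3.3, lmFit and eBayes) was fitted to the 10 group means of 28 human arrays (18 residual degrees of freedom), with Benjamini-Hochberg adjustment over all genes and two-sided p-values. It was tested on simulated data with independent noise, of equal spread on every array for a given gene. That setting does not cover a narrow array such as DBM2 V-4084 repeat 2. Errors are limma's SE unless named SD. Arrays have no depth, and their number limits precision. A rule set the genes to name: HGF and MET, 10 per direction by smallest p, 6 against the other lines, up to 4 per described list and 3 per side separating DBM2 from SF295 vehicle arrays; others are marked in the text. The members and lists were chosen with earlier results of these data known. No block was used, because the labels do not say that a repeat number marks a shared culture or day. Across genes, same-numbered vehicle and V-4084 arrays did not deviate together. Alternatives were leaving out each DBM2 array, the 6 arrays alone, quantile and median scaling, array weights, an intensity trend, a filter on dim genes, the mean of probe sets and a replicate block; the contrast with U87M2 and the fit without the 3 human arrays of lowest SD over probe sets, all V-4084 (DBM2 repeat 2, U251M2 repeat 1 and SF295 repeat 2), were added after the data were seen.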

Additional observations from a re-analysis of the deposited data

Results flagged for a closer look

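Among the 81 genes of the text that were recomputed under every alternative, 29 had a V-4084 effect in DBM2 that differed from that in U87M2 by the test of the difference itself (limma, adjusted p from 2.36e-09 to 0.0283, 3 arrays per group). The effect in DBM2 was the higher one for FOSL1 (2.33), EPHA2 (2.29), EGR1 (1.93), LIF (1.77), MYC (1.65), DUSP6 (1.29), MSMO1 (1.15), METTL1 (0.94), MVD (0.93), JUNB (0.81) and AUNIP (0.64), as log2 differences between the 2 effects. It was the lower one for PDE5A (-2.46), SESN3 (-2.24), LONRF2 (-1.94), BCL2L11 (-1.82), NRCAM (-1.74), POSTN (-1.73), FBXO32 (-1.56), NEK10 (-1.44), SESN1 (-1.44), CPED1 (-1.39), MAP2 (-1.31), MMP16 (-1.26), GAB1 (-1.21), IFI44L (-1.15), PDCD7 (-1.14), IFI44 (-0.90), COL1A2 (-0.85) and SREK1 (-0.75). Without DBM2 V-4084 repeat 2, 25 of the 29 stayed past the threshold, and AUNIP, IFI44, JUNB and SREK1 did not (adjusted p = 0.0826, 0.0695, 0.0543 and 0.0737). MET, KIF18A, BNIP3 and SC5D passed only without that array, with gaps of 0.86, 1.04, 1.11 and 0.88 (adjusted p = 0.0035, 0.00484, 0.0127 and 0.0285). The contrast was chosen after the data were seen. Among all genes 3.43% were called higher and 3.36% lower in it. Of the 81 genes, 6 were named for a gap to a mean of lines that includes U87M2, and others after their values were seen. Their count was therefore partly set by the choice of genes and is no measure of enrichment.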

How the results depend on the processing

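For V-4084 against vehicle in DBM2, limma called 0 genes under every setting run except 1: leaving out single arrays gave 0 to 4537 genes, with the calls coming without V-4084 repeat 3. Genes at an unadjusted p under 0.05 ran from 475 with array weights, whose estimation did not converge fully, to 7629 without V-4084 repeat 3. DBM2 against the mean of the other lines gave 0 to 478 genes when single arrays were left out, 1 with quantile normalization, 1 with equal median and absolute deviation and 1 with an intensity trend. DBM2 against U87M2 gave 875 to 1800 when single arrays were left out and 1966 without the 3 human arrays of lowest SD, against 1250. With the replicate block these comparisons gave 0, 0 and 891 genes. Deviations of same-numbered arrays had correlations of -0.01, -0.28 and -0.52 across genes, which do not test a shared culture or day. Of 81 genes recomputed, 64 passed the threshold without V-4084 repeat 3 and none under another setting. Among all genes 10.5% were called higher and 14.1% lower without that array. Most of the 81 were named for a small p on these same arrays, so the 64 were partly set by that choice. Of the 4537 genes called, repeat 3 lay on the same side of the vehicle mean for 81.0% and beyond the vehicle range for 35.5%. The calls and these shares use the same vehicle arrays, so the shares are no independent support for the calls. Signs turned for 5 named genes: with single arrays left out EGR1 ran from -0.058 to 0.38, DUSP6 from -0.23 to 0.18, EPHA2 from -0.38 to 0.11 and BCL2L11 from -0.17 to 0.20. DUSP6 stood at 0.14 with quantile normalization and 0.18 with equal median and absolute deviation, where VIM stood at 0.055. BCL2L11 stood at -0.094 with array weights and, like EPHA2, turned without those 3 arrays (-0.17 and 0.11). The cause of these shifts was not tested.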

Other observations

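Both gene families below were picked after the values were seen, so their counts describe these arrays only. Of 494 zinc finger genes with a ZNF symbol, 80 were lower and 32 higher at an unadjusted p under 0.05, which is 16.2% and 6.48% against 14.4% and 12.4% of all genes. Without V-4084 repeat 2 the counts were 37 and 5, or 7.49% and 1.01% against 3.11% and 2.6%. Their median difference was -0.04, and -0.09 without that array. Of 176 small nucleolar RNA genes, which guide the modification of ribosomal RNA, 34 were lower (19.3%) and 3 higher (1.7%), and without repeat 2 15 (8.52%) and 0. Their medians were -0.09 and -0.15. None was called by limma with all arrays or without repeat 2.

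Without repeat 2, PCBP1, a binding protein for poly(C) RNA, and NEK10, a kinase of the NIMA family, were among the genes with a small p on the lower side. Their unadjusted limma p was 0.000693 and 0.00105. PCBP1 was 7.55, 7.66 and 7.49 on the vehicle arrays and 6.95, 7.74 and 7.07 on the V-4084 arrays, low on repeats 1 and 3 and high on repeat 2 (difference -0.31, and -0.56 without repeat 2). NEK10 was 7.80, 8.03 and 8.15 on the vehicle arrays and 7.08, 7.62 and 7.56 on the V-4084 arrays, low on all 3 with repeat 2 nearest to vehicle (-0.57, and -0.67 without repeat 2). Neither was called (limma adjusted p = 0.211 and 0.111 with all arrays).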
